A study of Mus musculus with 2 samples.

Results

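Described here are 10 genes of prostaglandin and leukotriene synthesis in macrophages labelled Oasl1-/-. Oasl1 belongs to the oligoadenylate synthetase family and is induced by interferon. The 10 genes were taken by symbol from 22088 genes on the array, and a gene with several probe sets was to be represented by the one with the highest mean signal of both arrays. Each of the 10 genes had a single probe set, so that rule made no choice among them. With a single array of each genotype, no difference has a replicate check, and no p-value is given.

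The series holds polysome-associated RNA from 1 array of Oasl1-/- and 1 array of wild-type bone marrow-derived macrophages. Both cultures were of strain C57BL/6J, had been differentiated for 7 days with 20% supernatant of L929 cells, which secrete macrophage growth factor, and had received 10 µg/ml of the double-stranded RNA mimic poly(I:C) over 12 h. RNA came from fractions 9 to 11 of the 16 fractions of a sucrose gradient, where mRNAs that carry several ribosomes sediment. The labels do not say which part of Oasl1 was deleted, how many mice gave marrow, or whether animals were pooled, and no untreated culture was analysed here.

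Values are log2 signals of Affymetrix Mouse Gene 1.0 ST arrays after RMA, a method that subtracts background, equalises the distributions of the arrays and reduces the probes of a set to a single value. A difference is Oasl1-/- minus wild-type, so a positive value means higher in Oasl1-/- macrophages. A log2 signal of 7 was used as a floor, and a gene was past it when the higher of its 2 signals reached 7, which 7835 genes did. Of 5222 control probe sets placed in introns, 96.6% were below 7 on the Oasl1-/- array and 97.1% on the wild-type array. Of 45 antigenomic control probe sets, which match no mouse sequence, only 71.1% were below 7 on the Oasl1-/- array and 75.6% on the wild-type array, so a signal past the floor can still lie within this class of background. All 9 macrophage markers, among them Csf1r, Cd68 and Lyz2, were past the floor on both arrays, with signals of 8.99 to 12.78 on the Oasl1-/- array and 8.40 to 12.77 on the wild-type array. Oasl1 itself had a signal of 9.14 in Oasl1-/- and 10.70 in wild-type macrophages, a difference of -1.57, so its signal in the array labelled Oasl1-/- stayed above the floor. Polysomal signal depends on the amount of an mRNA and on how much of it is on polysomes, and fewer cells of a type and less RNA per cell cannot be told apart in such a sample.

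Eicosanoids are signalling lipids made from arachidonate, a fatty acid held in membrane phospholipids. Cytosolic phospholipase A2 releases it, and separate routes then compete for it. Cyclooxygenases turn it into prostaglandin H2, from which terminal synthases make prostaglandin E2 and other prostanoids, whereas 5-lipoxygenase with its membrane partner FLAP makes leukotriene A4, the precursor of leukotriene B4 and of the cysteinyl leukotrienes. Macrophages are a main source of both classes, and the inducible cyclooxygenase and the inducible prostaglandin E synthase are known to be switched on together by inflammatory stimuli.

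The signals of the inducible pair of the prostaglandin E2 route were higher in the Oasl1-/- array, and that of 5-lipoxygenase was lower. Ptges was 2.16-fold and Ptgs2 1.97-fold higher, and Alox5 was 2.46-fold lower. In all 3 cases 1 of the 2 signals lay below the floor, so the sizes of these differences are not well bounded. Both Alox5 signals lay within the central 95% of the intron controls, so whether it differed cannot be read with confidence. For Ptgs2 and Ptges the wild-type signal lay within that range. Their Oasl1-/- signals, 7.44 and 7.54, lay only narrowly above its upper end of 7.34 on that array. The brighter signal exceeded 97.6% of intron controls for Ptgs2, 97.9% for Ptges and 97.3% for Alox5, so all 3 differences call for similar caution. The phospholipase gene Pla2g4a and the FLAP gene Alox5ap, which were well above the floor on both arrays, differed by 0.18 and -0.14. The leukotriene A4 hydrolase gene Lta4h was 1.34-fold lower, with its Oasl1-/- signal within the central 95% of the intron controls. Ptgs1, Ptger2, Ptger4 and Ltc4s were below the floor on both arrays.

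**Figure D1:**
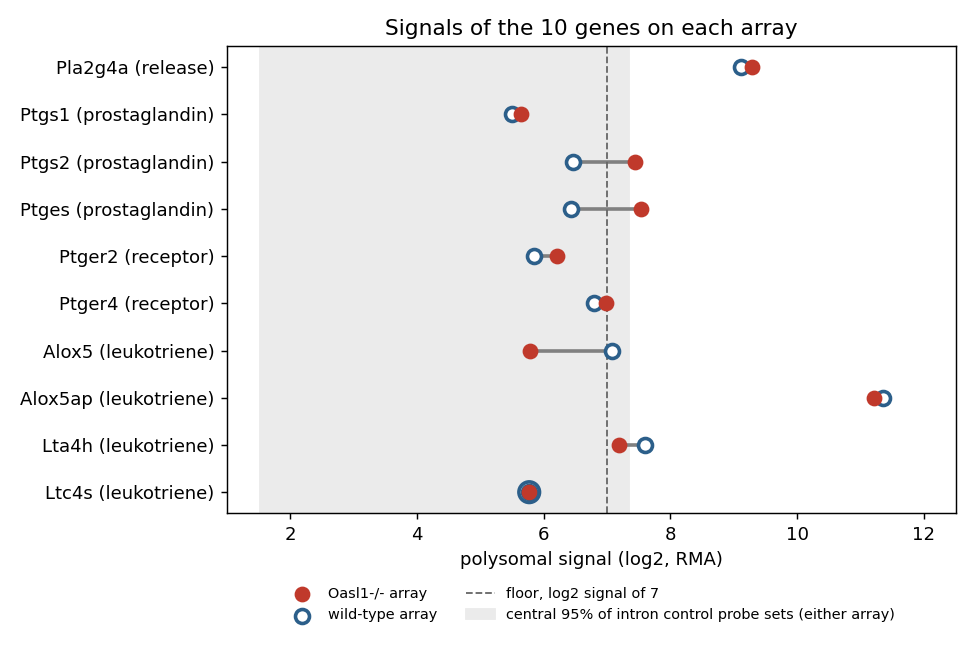
Polysomal log2 signal of the 10 genes, grouped by role down the page, on the Oasl1-/- array (filled red points) and the wild-type array (open blue circles), with 1 array per genotype and no error bars. Grey marks the central 95% of 5222 intron control probe sets and the dashed line the floor of 7. Alox5ap and Pla2g4a lie to the right of the control range, Ptgs2, Ptges and Alox5 straddle the floor, and the 2 Ltc4s points coincide.

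Pla2g4a encodes cytosolic phospholipase A2, which frees arachidonate from phospholipids at internal membranes. Its 37-probe set spans chr1:151676748-151808414 on the minus strand of build NCBIM37. The log2 signal was 9.29 in Oasl1-/- and 9.11 in wild-type macrophages, a difference of 0.18 (1.13-fold). Both signals were above 99% of the intron controls, namely above 99.3% on the Oasl1-/- array and above 99.2% on the wild-type array. Among the 500 genes closest to it in mean signal, the central 95% of differences ran from -0.64 to 0.87, and Pla2g4a lay inside this range, as did 6 others of the 10 genes in theirs. These ranges describe genes on the 2 arrays and are no replicate error.

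Ptgs2 encodes the inducible cyclooxygenase and lies 138815 bases from Pla2g4a on the same chromosome, on the opposite strand, at chr1:151947230-151955147. Its signal was 7.44 in Oasl1-/- and 6.46 in wild-type macrophages. The Oasl1-/- signal was past the floor and above 97.6% of intron controls, and the wild-type signal was below the floor and above 95.6% of them. The difference was 0.97, or 1.97-fold, against a range of -0.86 to 0.67 in the 500 genes of closest signal. It missed the 2-fold threshold as deposited and passed it after the arrays were centred on their medians (1.03), after lowess (1.21) and after quantile normalization (1.07). With the wild-type signal raised to the floor, the difference was 0.44.

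Ptges encodes the microsomal prostaglandin E synthase that is coupled to the inducible cyclooxygenase. Its 25-probe set lies at chr2:30744991-30758817 on the minus strand. The signal was 7.54 in Oasl1-/- and 6.43 in wild-type macrophages, a difference of 1.11 (2.16-fold). Of 7835 genes past the floor, 95 had a higher difference. Ptges entered these genes only through its Oasl1-/- signal, so its difference had to be positive and the rank is a description. Its range in the 500 genes of closest signal was -0.86 to 0.70. As for Ptgs2, the wild-type signal was below the floor, and raising it to the floor left a difference of 0.54, or 1.45-fold. A pseudocount of 32 on the linear scale gave 0.88, under the 2-fold threshold.

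Ptgs1 encodes the constitutive cyclooxygenase and lies at chr2:36085946-36107792. Its signal was 5.64 in Oasl1-/- and 5.50 in wild-type macrophages, both below the floor, and the difference was 0.15. Each signal exceeded about the same share of intron controls, 89.6% on the Oasl1-/- array and 89.4% on the wild-type array. Signals of this size lie within the range of the intron controls, so neither a presence nor a difference can be read from them.

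The promoters of the 3 genes with the largest differences are printed because 2 of them stood higher and 1 lower. Each run, from RefSeq on build GRCm38.p6, holds 250 bases before and 30 after the annotated start, 5′ to 3′ on the gene's strand, with motif matches in capitals.
Ptgs2, chr1:150099781-150100060, plus strand: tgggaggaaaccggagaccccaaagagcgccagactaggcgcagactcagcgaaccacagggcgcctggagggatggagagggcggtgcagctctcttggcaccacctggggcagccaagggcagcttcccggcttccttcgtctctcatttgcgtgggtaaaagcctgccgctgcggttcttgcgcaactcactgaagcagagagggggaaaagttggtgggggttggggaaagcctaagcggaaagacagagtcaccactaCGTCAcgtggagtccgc
Ptges, chr2:30903268-30903547, minus strand: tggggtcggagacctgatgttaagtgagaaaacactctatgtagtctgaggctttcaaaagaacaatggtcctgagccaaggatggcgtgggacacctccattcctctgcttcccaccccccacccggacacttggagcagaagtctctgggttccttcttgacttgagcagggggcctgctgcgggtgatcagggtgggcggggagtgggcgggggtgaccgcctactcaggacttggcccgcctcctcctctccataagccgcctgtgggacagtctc
Alox5, chr6:116461149-116461428, minus strand: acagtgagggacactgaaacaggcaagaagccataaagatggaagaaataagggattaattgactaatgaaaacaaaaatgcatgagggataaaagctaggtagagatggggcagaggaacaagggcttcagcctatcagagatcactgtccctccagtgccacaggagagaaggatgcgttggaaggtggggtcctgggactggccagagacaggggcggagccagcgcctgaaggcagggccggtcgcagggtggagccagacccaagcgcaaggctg
Both strands were searched for the core of interferon-stimulated response elements (GAAA, any 2 bases, GAAA), TTCNNNGAA, the STAT site, the kB consensus, CGTCA, the core of the cyclic AMP response element, and TATAAA. The only match in these 3 promoters was CGTCA in Ptgs2, on the plus strand at bases 14 to 18 after the annotated start, and no match overlapped another. CGTCA was present in 19.9% of all 32851 RefSeq windows of this length, TATAAA in 13.1%, the kB consensus in 7.94%, TTCNNNGAA in 7.83% and the interferon-stimulated core in 3.28%. Promoters were listed for 9 of the 10 genes, all but Alox5ap, with 2 for Pla2g4a. A match is a run of letters and was not tested as a binding site. Positions hold for this annotated start, which was not compared with the start of the probe-set coordinates. Sites outside the printed windows were not searched.

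Ptger2 and Ptger4 encode the prostaglandin E2 receptors EP2 and EP4, which raise cyclic AMP and through it restrain macrophage cytokine output. Ptger2 had a signal of 6.20 in Oasl1-/- and 5.85 in wild-type macrophages, a difference of 0.35. Ptger4 had 6.99 in Oasl1-/- and 6.80 in wild-type macrophages, a difference of 0.19. Both genes were slightly higher in the Oasl1-/- array and below the floor on both arrays, Ptger4 by a small margin. Ptger4 (39 probes, chr15:5183399-5194172) exceeded 96.6% of intron controls on either array, and Ptger2 (30 probes, chr14:45607870-45622888) exceeded 93.4% on the Oasl1-/- array and 92.6% on the wild-type array.

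Alox5 encodes 5-lipoxygenase, which carries out the first steps from arachidonate to leukotriene A4. Its 34-probe set lies at chr6:116360089-116411196 on the minus strand. The signal was 5.78 in Oasl1-/- and 7.08 in wild-type macrophages, so the wild-type signal was just past the floor and the Oasl1-/- signal well below it. The Oasl1-/- signal exceeded 90.7% of intron controls and the wild-type signal 97.3%, so both lay within their central 95%. As for Ptgs1, neither a presence nor a difference can be read with confidence from such signals. The difference was -1.30, and 13 of the 7835 genes past the floor had a lower one. Alox5 entered these genes only through its wild-type signal, so its difference had to be negative and the rank is a description. The range in the 500 genes of closest signal was -0.85 to 0.61. The difference was under 2-fold after lowess (-0.94) and with a pseudocount of 32 (-0.94), and it was -0.079 with the Oasl1-/- signal raised to the floor.

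Alox5ap encodes FLAP, the nuclear membrane protein that presents arachidonate to 5-lipoxygenase, and lies at chr5:150076634-150099723. Its signal was 11.21 in Oasl1-/- and 11.35 in wild-type macrophages, a difference of -0.14. It exceeded all 45 antigenomic control probe sets on both arrays, as did Pla2g4a. The other genes past the floor did not. Ptgs2 exceeded 34 of the 45 on the Oasl1-/- array and 31 on the wild-type array. Ptges exceeded 36 on the Oasl1-/- array and 30 on the wild-type array. Alox5 exceeded 28 on the Oasl1-/- array and 34 on the wild-type array, and Lta4h 34 on the Oasl1-/- array and 36 on the wild-type array. Alox5ap lay inside the range of its closest genes, -0.51 to 0.83.

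Lta4h encodes leukotriene A4 hydrolase, which makes leukotriene B4, a neutrophil attractant, and lies at chr10:92916141-92947641. Its signal was 7.18 in Oasl1-/- and 7.60 in wild-type macrophages, both past the floor, and the difference was -0.42. This lay inside its range of -0.88 to 0.66, and 1084 of the 7835 genes had a lower difference. Ltc4s encodes leukotriene C4 synthase, which starts the cysteinyl branch, and lies at chr11:50049964-50052000. Its deposited signal was the same on both arrays, 5.77, below the floor. Identical values were not peculiar to it: 1442 of 35556 probe sets, and 881 of 22088 genes, had the same deposited signal on both arrays, but only 25 of the genes past the floor did.

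Of the 10 genes, 6 were higher by some amount, 3 lower and 1 level, whether past the floor or not, against 53.4% higher and 42.7% lower among all 22088 genes. The signs of Ptgs1, Ptger2, Ptger4 and Ltc4s in this count cannot be read, since they were below the floor on both arrays. That of Alox5 cannot be read with confidence either, since both its signals lay within the central 95% of intron controls. The signs of Ptgs2, Ptges and Lta4h call for similar caution. For Ptgs2 and Ptges the wild-type signal lay within that central 95% and the Oasl1-/- signal narrowly above it. For Lta4h the Oasl1-/- signal lay within it. Of the 10 genes 3 were past the floor on both arrays (Pla2g4a, Alox5ap and Lta4h), 2 on the Oasl1-/- array only (Ptgs2 and Ptges), 1 on the wild-type array only (Alox5) and 4 on neither. A gene past the floor on a single array had to differ to be counted, so counts over the 6 are a description. Among these 6, 3 were higher and 3 lower, with a median of 0.02. Over all 7835 genes 39.1% were higher and 60.6% lower, with a median of -0.09. At least 2-fold higher was 1 of the 6, Ptges, against 1.57% of all genes past the floor. At least 2-fold lower was 1 of the 6, Alox5, against 0.651%. Among the 658 genes with a single signal at or above the floor, 5.47% were higher by 2-fold or more and 4.26% lower by as much. These shares pool genes that could only be higher with genes that could only be lower. All 36 higher calls came from the 183 genes past the floor on the Oasl1-/- array only, the class of Ptges and Ptgs2. All 28 lower calls came from the 475 genes past it on the wild-type array only, the class of Alox5. Among the 7177 genes with both signals at or above the floor, 1.21% were higher by 2-fold or more and 0.32% lower by as much. Of the 3 genes, 0 were in either class. Over all genes the deposited values gave 123 higher by 2-fold or more and 51 lower, whereas lowess gave 154 and 27 and quantile normalization 146 and 33.

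**Figure D2:**
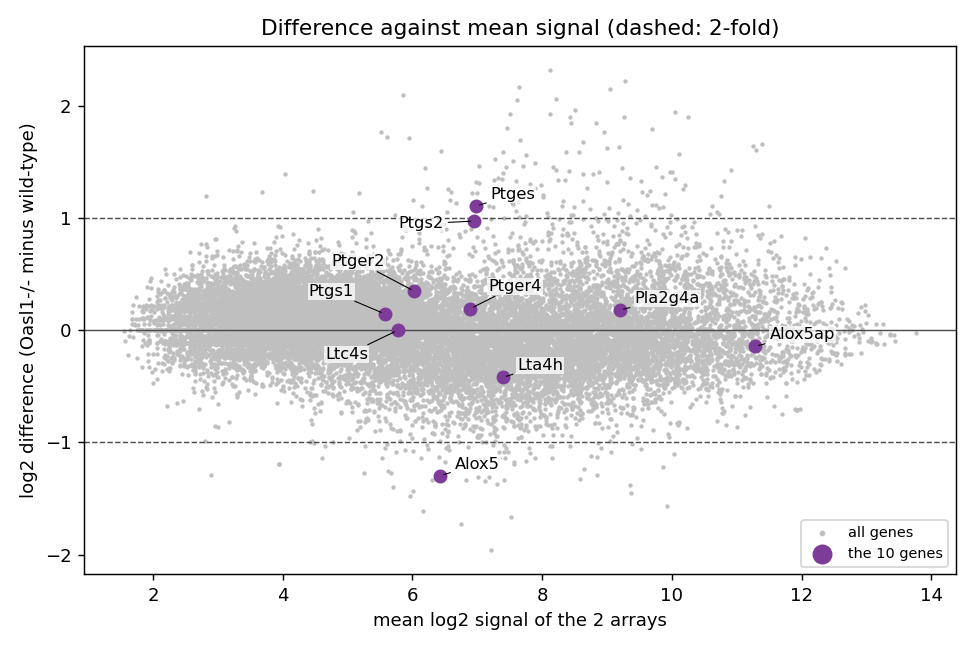
Log2 difference (Oasl1-/- minus wild-type) against the mean log2 signal of the 2 arrays for 22088 genes (grey points) and the 10 genes (purple points), with dashed lines at 2-fold. Ptges at 1.11 lies above the upper line, Ptgs2 at 0.97 just under it and Alox5 at -1.30 below the lower line, all at a mean signal close to the floor of 7.

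The rest of the pathway was read from 63 further genes in 7 lists by role, all of which matched the array, with 26 past the floor. Of these 26, 14 were higher and 12 lower, the median was 0.03, 2 were higher by 2-fold or more and 0 were lower by as much. Beside these counts and those of each list below stand the shares of all 7835 genes past the floor. There 39.1% were higher and 60.6% lower, 1.57% were higher by 2-fold or more and 0.651% lower by as much. Both pathway genes higher by 2-fold or more belonged to arachidonate release and re-esterification. In that list 9 of 19 genes were past the floor, 7 of them higher and 2 lower, with a median of 0.18. Lpcat2, which rebuilds phosphatidylcholine and makes platelet-activating factor, had a signal of 10.54 in Oasl1-/- and 9.17 in wild-type macrophages, a 2.58-fold difference far above the floor. Pla2g16, a phospholipase and acyltransferase, had 8.10 in Oasl1-/- and 6.96 in wild-type macrophages, where it was below the floor, and was 2.19-fold higher. Pla2g7, which breaks down platelet-activating factor, had 9.27 in Oasl1-/- and 8.74 in wild-type macrophages, 1.44-fold higher.

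Among the other prostanoid synthases 7 of 9 genes were past the floor, with 3 higher, 4 lower, none 2-fold different and a median of -0.04. Hpgds, the haematopoietic prostaglandin D synthase, had 10.01 in Oasl1-/- and 10.51 in wild-type macrophages, a difference of -0.50. Ptges3, a co-chaperone also described as cytosolic prostaglandin E synthase, had 10.89 in Oasl1-/- and 11.32 in wild-type macrophages, a difference of -0.43, and its other 2 probe sets gave -0.16 and -0.30. Prxl2b, listed on the array as 2810405K02Rik and known as a prostaglandin F synthase, differed by -0.40. Ptges was the only listed terminal prostanoid synthase past the floor with a difference over 1. It passed the floor only on the Oasl1-/- array, where its signal was higher, whereas the other 7 passed it on both. With its wild-type signal raised to the floor, the difference of Ptges was 0.54.

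Past the floor among prostanoid receptors was only Ptgir, the prostacyclin receptor, 1 of 7 listed, at 7.17 in Oasl1-/- and 6.93 in wild-type macrophages. In transport and breakdown 3 of 5 genes were past the floor, 1 higher and 2 lower. The exporter Abcc4 differed by 0.08, and the prostaglandin reductases Ptgr1 and Ptgr2 by -0.12 and -0.30. Hpgd, the dehydrogenase that inactivates prostaglandin E2, is named after its value was seen: its signal was 5.00 in Oasl1-/- and 6.40 in wild-type macrophages, a difference of -1.40 with both signals below the floor.

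On the leukotriene side, Cysltr1, the main receptor for leukotriene D4, was the 1 of 6 receptors past the floor, at 9.63 in Oasl1-/- and 9.27 in wild-type macrophages, a difference of 0.36. In leukotriene transport and conversion 4 of 9 were past the floor, 1 higher and 3 lower, with a median of -0.24. Dpep2, a dipeptidase that turns leukotriene D4 into E4, had 9.93 in Oasl1-/- and 9.31 in wild-type macrophages, a difference of 0.62, and a second, dim probe set gave -0.32. Cotl1, an actin-binding protein known to bind and stabilise 5-lipoxygenase, had 10.28 in Oasl1-/- and 10.75 in wild-type macrophages, a difference of -0.47. Mgst3, a microsomal glutathione transferase, differed by -0.32. Of 8 other lipoxygenase and related genes only Gpx4, a peroxidase that lowers lipid hydroperoxides, was past the floor, with -0.33 and, for its second probe set, -0.26.

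**Figure D3:**
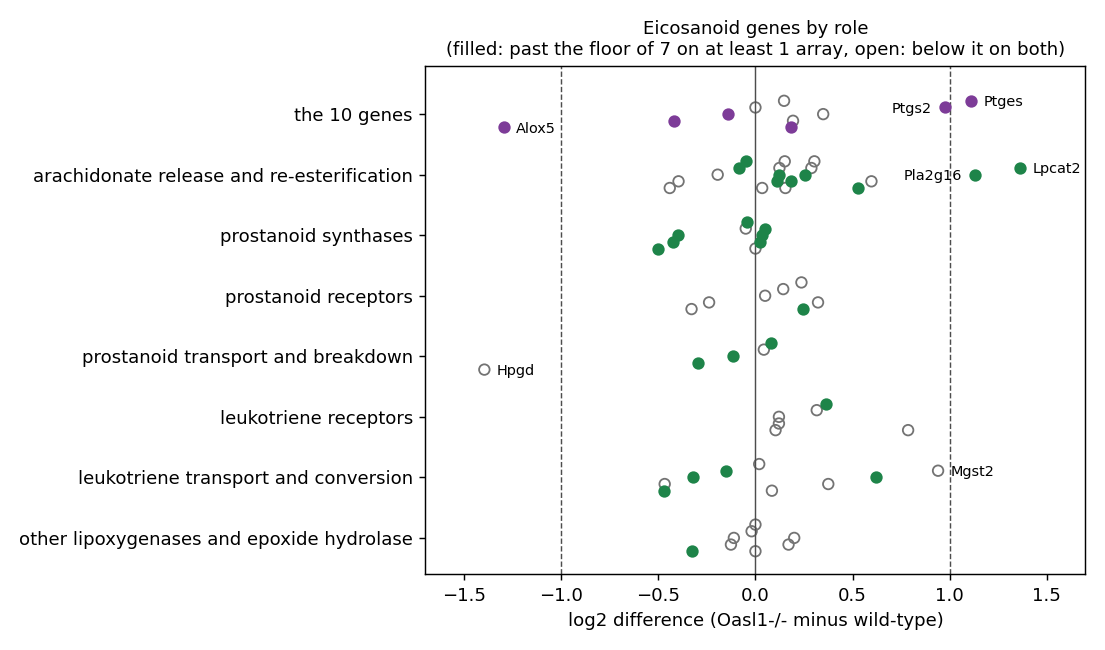
Log2 difference (Oasl1-/- minus wild-type) of the 10 genes (top row) and of 63 further eicosanoid genes in 7 lists by role, 1 point per gene, filled where past the floor of 7 on at least 1 array and open where below it on both. Vertical spread within a row has no meaning, and dashed lines mark 2-fold. Lpcat2, Pla2g16 and Ptges are the filled points right of the upper line and Alox5 is the filled point left of the lower line.

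The process annotation in the deposited table gave a wider view, chosen after the data were seen and sharing genes with the lists above. Over all genes past the floor, 39.1% were higher and 60.6% lower, with a median of -0.09. Of 15 genes annotated with prostaglandin biosynthesis, 9 were past the floor, 6 higher and 3 lower, with a median of 0.04. Ptgs2, Ptges and Pla2g4a, all among the 10 genes, were among the higher ones, and Ptgs2 and Ptges passed the floor on the Oasl1-/- array only. Of 16 genes annotated with leukotriene biosynthesis, 5 were past the floor, 1 higher and 4 lower, with a median of -0.14. Alox5, Alox5ap and Lta4h, all among the 10 genes, and the aminopeptidase gene Rnpep (-0.01) were the 4 lower ones. The kinase gene Sykb (0.10) was the higher one. Of 14 genes annotated with arachidonic acid terms, 4 were past the floor, 1 higher and 3 lower, with a median of -0.37. Alox5, past it on the wild-type array only, and Pla2g4a are again among the 10 genes. For genes past the floor on both arrays, the median was -0.07 over all genes and 0.03 for the prostaglandin set. It was -0.08 for the leukotriene set and -0.05 for the arachidonic acid set. Fads1 of this last set, the desaturase that makes arachidonate, is named after its value was seen: it had 9.93 in Oasl1-/- and 10.62 in wild-type macrophages, a difference of -0.69.

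Several of these enzymes are also abundant in mast cells, neutrophils and platelets, so markers of such cells were read beside them. All 8 neutrophil markers were below the floor on both arrays, between 4.54 and 5.80 on the Oasl1-/- array and 4.00 and 5.60 on the wild-type array. Of 8 mast cell and basophil markers 7 were below the floor on both, including Cpa3, Mcpt4 and Fcer1a. The other, Hdc, a histidine decarboxylase that stimulated macrophages also make, had 8.60 in Oasl1-/- and 7.58 in wild-type macrophages, and the log2 of the summed signal of this list was 9.10 in Oasl1-/- and 8.43 in wild-type macrophages. Of 4 measured platelet markers only Pf4, which macrophages also express, was past the floor, at 9.17 in Oasl1-/- and 9.48 in wild-type macrophages. The 3 T cell, 3 B cell, 4 dendritic cell and 5 fibroblast markers were below the floor on both arrays. The brightest fibroblast marker, Col1a1, was close to it, at 6.94 in Oasl1-/- and 6.56 in wild-type macrophages. For the fibroblast list the log2 of the summed signal was 8.42 in Oasl1-/- and 8.12 in wild-type macrophages. The part of these cells in the differences was not tested.

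**Figure D4:**
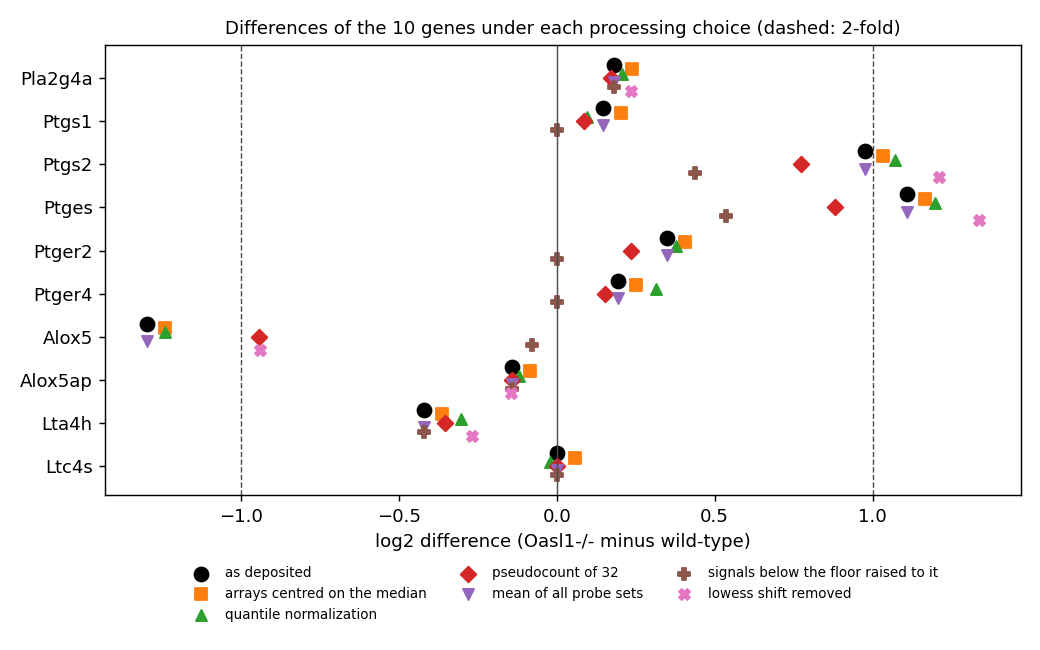
Log2 difference (Oasl1-/- minus wild-type) of each of the 10 genes as deposited (black) and under 6 other processing choices (coloured symbols), with dashed lines at 2-fold. Ptgs2 ranges from 0.44 to 1.21, Ptges from 0.54 to 1.34 and Alox5 from -1.30 to -0.079, whereas Pla2g4a stays between 0.17 and 0.24 and Alox5ap between -0.14 and -0.08.

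The plot of processing choices shows which values depend on the treatment of dim signals. Over the 6 alternatives Pla2g4a stayed between 0.17 and 0.24, Alox5ap between -0.14 and -0.08 and Lta4h between -0.42 and -0.27. The sign of the difference of Ptgs2, Ptges and Alox5 was the same under each of the 6, but some of the 6 could not reverse it. A pseudocount and raising signals to 7 keep the order of 2 signals. The mean of all probe sets changed nothing, because each gene had a single probe set. An unchanged sign is therefore no check on these differences. The sizes for Ptgs2, Ptges and Alox5 were smallest when signals below 7 were raised to 7.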

How the data were processed

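Polysomal RNA of 1 Oasl1-/- and 1 wild-type macrophage culture, grouped by the genotype in the labels, was measured on Affymetrix Mouse Gene 1.0 ST arrays. Per the submitters' processing notes, the log2 signals that the authors deposited for 35556 probe sets are RMA values of GCOS-processed scans. The series design text names Expression Console 1.1 and version 2.9.2 of the R affy package. The deposited log2 ratio was Oasl1-/- minus wild-type in every one of the 35556 rows (within 2e-06), and the authors' fold change was its unsigned linear form. The values of the other deposited table were identical. Coordinates and annotation, with the number of probes per set, are those of the authors' table.

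Probe sets with 1 symbol (25465) were used, and those with several (2) or none (10089) were not. Each of 22088 genes was represented by its brightest probe set. Genes with a log2 signal of at least 7 on at least 1 array were counted, and an absolute log2 difference of at least 1 was called. Precision is limited by the number of arrays. Alternatives were median centring, lowess (fraction 0.4), quantile normalization, a pseudocount of 32, floors of 6, 8 and none, and the mean of all probe sets, and 2 more, dim signals raised to the floor and a floor on both arrays, were added after the data were seen. Counting was tested on simulated data with changes well over 2-fold, planted only in genes well above the floor. The added noise was smaller than the spread of the real differences. That test therefore does not bear on changes in dim genes. The 10 genes and the pathway and marker lists were chosen with earlier results of these data known. Named genes are the 10, pathway genes at least 2-fold different, the 3 past the floor with the largest difference in each list (all, where 3 or fewer are past it), and Oasl1. Python 3.11.15, pandas 2.3.3 and statsmodels 0.14.6 were used.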

Additional observations from a re-analysis of the deposited data

How the results depend on the processing

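Of 216 values under 10 alternatives 175 stayed within the limits set for them (for a difference or median, 0.32, the MAD-based SD of differences over genes past the floor; for a count, 1.5 times), and 41 moved. No called difference changed sign, although a pseudocount and raising dim signals to the floor cannot reverse one. Medians close to 0 did: that of the 10 genes was 0.020 and turned to -0.14 with a floor on both arrays, that of the pathway lists was 0.028 and turned to -0.010 with a floor of 8 or on both arrays, and that of all genes was -0.089 and turned to 0.034 with no floor. With signals below the floor raised to it, Ptgs2 was 0.44, Ptges 0.54, Ptger2 0.00 and Alox5 -0.079. Alox5 was -0.94 after lowess and -0.94 with a pseudocount of 32. Lowess gave no value for the 4 genes below the floor. The number of the 10 genes past the floor was 6, against 2 with a floor of 8, 10 with none and 3 with a floor on both arrays. At least 2-fold higher were 2 of them, Ptges and Ptgs2, after centring, lowess or quantile normalization, and 0 with the pseudocount, a floor of 8, signals raised to the floor or a floor on both arrays. At least 2-fold lower were 0 after lowess, with the pseudocount, a floor of 8, signals raised to the floor or a floor on both arrays. Of the 10 genes, 5 were higher with a floor of 6, 6 with no floor and 1 with a floor of 8 or on both arrays, and 1 was lower with a floor of 8. For the pathway lists, no floor gave 63 genes, 37 of them higher and 23 lower. At least 2-fold higher was 1 with the pseudocount or a floor on both arrays, and 1, Hpgd, was at least 2-fold lower with a floor of 6 or none. Over all genes (22088 with no floor), at least 2-fold lower were 27 after lowess, 33 after quantile normalization, 25 with the pseudocount, 29 with a floor of 8, 77 with no floor, 29 with signals raised to the floor and 23 with a floor on both arrays, against 51. Changes in counts under another floor follow from the genes that enter, and the cause of the others was not tested. No paired analysis was possible because each genotype had 1 array. Signal over background limits Ptgs2, Ptges and Alox5, which each had 1 signal below the floor, and the single array per genotype leaves every difference without an error.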
